A study of Mus musculus with 6 samples.

Results

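The vacuolar ATPase (V-ATPase) and the Ragulator-Rag complex were examined by RNA-seq in 2 subsets of monocyte-derived liver macrophages of mice with MASH. The genes were taken by symbol alone: every row of the expression table starting with Atp6v or Atp6ap, the Lamtor1 to Lamtor5 genes and the Rraga to Rragd genes, leaving out names with -ps, which mark pseudogenes. The gene set was chosen with earlier results of these data known, but the rule itself used no measured value. It found 29 of the 16503 genes in the table. They comprised 9 subunits of the V1 sector, 8 of the V0 sector, 2 accessory subunits, 5 Ragulator subunits, 4 Rag GTPases and Atp6v1fnb, a gene beside Atp6v1f that the symbol rule took along. A further 6 symbols sought for these complexes (Atp6v1b1, Atp6v1c2, Atp6v1e2, Atp6v1g3, Atp6v0a4 and Atp6ap1l) were not listed in the table.

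All libraries came from wild type (WT) C57BL/6J male mice, young adults at the start of CDA-HFD, a high-fat diet that lacks choline and takes its protein as defined amino acids, which induces steatohepatitis with fibrosis. Tim4-negative Ly6Clo F4/80+ macrophages were sorted by surface CD11c and Mincle into CD11chiMinclehi macrophages (n = 3 libraries), which the study equates with hepatic lipid-associated macrophages (hLAMs), and CD11cloMinclelo macrophages (n = 3), equated with monocyte-derived Kupffer cells (moKCs). The labels call the 3 libraries of a group biological replicates and number them 1 to 3, in which order values are given below. No group without the diet was part of this comparison.

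The V-ATPase pumps protons into lysosomes and other vesicles. Its V1 sector, in the cytosol, splits ATP and turns a central stalk, and its V0 sector, in the membrane, carries the protons. Ragulator anchors the Rag GTPases to the lysosomal surface, where, with the V-ATPase, they report amino acid supply and recruit the growth kinase complex mTORC1. In macrophages, this machinery serves the digestion of engulfed cells and lipids, and osteoclasts, the bone-resorbing relatives of macrophages, use the same pump to acidify bone.

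Depth and purity were checked first. Estimated depth was 7.01 to 8.14 M reads (M for mega) per library. Itgax, which encodes CD11c, was at 327 ± 12.6 TPM (SD) in CD11chiMinclehi and 183 ± 12.6 TPM in CD11cloMinclelo libraries (adjusted p = 0.00467 in limma), whereas Clec4e, which encodes Mincle, was at 365 ± 52.0 and 316 ± 60.8 TPM (adjusted p = 0.655). Clec4e was higher in CD11chiMinclehi in pairs 1, 2 and 3 of equal replicate number, by 0.16, 0.18 and 0.31 on the log2 scale. With the replicate number as a block in limma, its adjusted p was 0.0667. The 8 macrophage markers sought were all listed and summed to 3706 to 4175 TPM in every library. Markers of 8 other cell types had their lowest sums in replicate 1 of both groups, and in 5 of the 8 the replicates stood in the same order in both groups. The 6 T and NK cell markers, cells that the sort gate was set to leave out, summed to 10.3, 307 and 102 TPM in CD11chiMinclehi replicates 1, 2 and 3 and to 5.05, 469 and 151 TPM in CD11cloMinclelo replicates 1, 2 and 3. The 5 listed neutrophil markers summed to 53.4, 212 and 239 TPM against 26.1, 317 and 234 TPM, and 7 hepatocyte markers to 1106, 2046 and 1286 TPM against 1265, 1716 and 1892 TPM. In bulk libraries, fewer cells of a type and less RNA per cell cannot be told apart. The sum of 5 listed stellate and fibroblast markers was 96.0 to 123 TPM against 148 to 210 TPM. Of these 5 markers, 2 were lower without overlap and 1 was called, lower in CD11chiMinclehi libraries. None of the listed markers of any cell type was at 0 in all libraries. The part of these cells in the results below was not tested.

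V-ATPase and Ragulator-Rag transcripts were abundant in both subsets, and differences between the subsets were small in most of them. No member passed the test in either direction: 0 of 29 were called higher and 0 lower in CD11chiMinclehi macrophages at an adjusted p under 0.05 (limma on log2(TPM + 1), adjusted over all genes), where 0.77% of all genes were called higher and 0.454% lower. At an unadjusted p under 0.05, 8 members were higher and 0 lower, where 6.44% of all genes were higher and 6.45% lower. All 8 except Rragb, of the Rag GTPases, were V-ATPase subunits: Atp6v1a, Atp6v1b2, Atp6v1c1, Atp6v1e1, Atp6v0a1, Atp6v0d1 and Atp6v0d2. With the replicate number as a block, 1 member was called higher, Atp6v0a1, and 0 lower, where 1.67% of all genes were called higher and 1.75% lower.

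The 2 groups of libraries were apart, with no overlap, in 7 of 29 members, all higher in CD11chiMinclehi macrophages (Atp6v1a, Atp6v1b2, Atp6v1c1, Atp6v0d1, Atp6v0d2, Atp6v0e and Rragb), and in 0 members lower. Over all genes, 9.25% did not overlap and were higher, and 9.22% did not overlap and were lower. Abundant genes differ more often beyond their spread, so the 24 members with a mean of at least 100 TPM were also read against the 3298 genes at that level. Of these 24 members, 7 had an unadjusted p under 0.05 and were higher (13.4% of such genes), and 6 did not overlap and were higher (17.3% of such genes). CD11chiMinclehi levels were above CD11cloMinclelo levels in all 3 pairs of equal replicate number in 13 of 29 members, against 18.0% of all genes, and in 12 of the 24 abundant members, against 28.9% of genes at that level. The fold change was above 0 in 24 of 29 members (48.1% of all genes) and in 21 of the 24 abundant members (54.8% of genes at that level), with a median log2 fold change of 0.07 over members and -0.01 over all genes.

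The counts were repeated without each library in turn. CD11cloMinclelo replicate 2 was the lowest of the 6 libraries in 16 of the 24 abundant members, against 24.6% of all genes at that level, and it had the highest T and NK cell marker sum and the lowest macrophage marker sum. Without it, 5 members were higher at an unadjusted p under 0.05 (6.53% of all genes), the same 7 members did not overlap (14.2% of all genes), 21 had a fold change above 0, and the median was 0.03. The unadjusted count was also 5 without CD11chiMinclehi replicate 2, CD11chiMinclehi replicate 3 or CD11cloMinclelo replicate 3, and it was 6 without CD11cloMinclelo replicate 1 and 7 without CD11chiMinclehi replicate 1. Without any 1 of the other 5 libraries, 9 to 13 members did not overlap and were higher (12.9% to 14.4% of all genes), the 13 without CD11cloMinclelo replicate 1, 21 to 24 had a fold change above 0, and the median lay between 0.07 and 0.09. Members lower without overlap were 2 without CD11chiMinclehi replicate 2, 1 without CD11chiMinclehi replicate 3 and 2 without CD11cloMinclelo replicate 1. There were 0 without any other library, and the share of all genes was not computed on this side. Within pair 1, the pair with the lowest T and NK cell marker sums, 17 of 29 members were higher in CD11chiMinclehi macrophages with a median log2 difference of 0.03, against 25 with a median of 0.14 in pair 2 and 20 with a median of 0.08 in pair 3. Over all genes, the medians in pairs 1, 2 and 3 were 0, -0.03 and 0. Of the 24 abundant members, 16, 22 and 18 were higher in these pairs, against 50.7%, 55.5% and 54.0% of genes at that level.

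Many lysosomal genes carry the E-box CACGTG, the core of the element bound by TFEB and its relatives, so the promoters of the members were searched for it. RefSeq promoters on GRCm38.p6, from 250 bases before to 50 after the start of a transcript, were given for 22 of 29 members. CACGTG was found in 8 of these 22 (36.4%), against 7.15% of all 32851 promoters, 11.5% of the 10553 genes of the table with a promoter, and 13.5% of the 2665 such genes at 100 TPM or more. The longer TCACGTGA was found in 3 of 22 (13.6%), against 0.974% of all promoters, 2.19% of table genes and 2.89% of those at 100 TPM or more. Within the 250 bases before the start alone, CACGTG was found in 6 of 22 and TCACGTGA in 1, that of Atp6v1a. Both motifs read the same on both strands, and the longer contains the shorter. The windows below hold the sites of the 8 genes 5′ to 3′ on the strand of the gene, with CACGTG or TCACGTGA in capitals. For Rragb the window leaves out a site that crosses the start. The genes with TCACGTGA come first.
Atp6v1a: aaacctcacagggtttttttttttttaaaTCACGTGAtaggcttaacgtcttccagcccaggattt
Atp6v0d1: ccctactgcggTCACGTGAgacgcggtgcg
Atp6v0e: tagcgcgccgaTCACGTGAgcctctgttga
Atp6v0b: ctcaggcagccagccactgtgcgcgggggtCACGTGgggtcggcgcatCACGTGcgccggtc
Lamtor1: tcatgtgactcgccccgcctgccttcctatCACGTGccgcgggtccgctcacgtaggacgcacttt
Lamtor4: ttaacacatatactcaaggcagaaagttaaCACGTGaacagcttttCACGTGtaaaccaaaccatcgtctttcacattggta
Rragb: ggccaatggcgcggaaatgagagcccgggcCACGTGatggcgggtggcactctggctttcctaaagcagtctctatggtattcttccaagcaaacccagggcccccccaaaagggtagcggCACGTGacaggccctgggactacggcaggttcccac
Rragc: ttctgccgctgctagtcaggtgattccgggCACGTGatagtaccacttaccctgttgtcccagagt

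These windows lie at chr16:44139355-44139420 for Atp6v1a, chr8:105566050-105566079 for Atp6v0d1 and chr4:117887334-117887395 for Atp6v0b, all on the minus strand. On the plus strand they lie at chr17:26676387-26676416 for Atp6v0e, chr7:101905739-101905804 for Lamtor1, chr5:138255332-138255413 for Lamtor4, chrX:153139801-153139957 for Rragb and chr4:123917291-123917356 for Rragc. In GENCODE gene models, the Atp6v0e site lies in an exon, and the other windows hold no exon. The Atp6v1a and Atp6v0e windows lie within the span of their own gene, which for Atp6v0e is chr17:26663231-26699647.

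Mean levels of the 24 abundant members over the 6 libraries ran from 102 to 509 TPM, a scale corrected for gene length. Atp6ap1 (509 TPM), Atp6v1b2 (456 TPM), Atp6v0b (428 TPM) and Atp6v1e1 (408 TPM) stood at or above percentile 98.9 of all genes, and Atp6v0d2, the least abundant of the 24 (102 TPM), at percentile 80.4. The other 5 members (Atp6v1g2, Rragd, Rragb, Atp6v0e2 and Atp6v1fnb) had means between 1.08 and 10.03 TPM. In each of the paralog pairs G, e, RagA/B and RagC/D, 1 gene gave at least 92.8% of the transcript of the pair in every library.

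**Figure D1:**
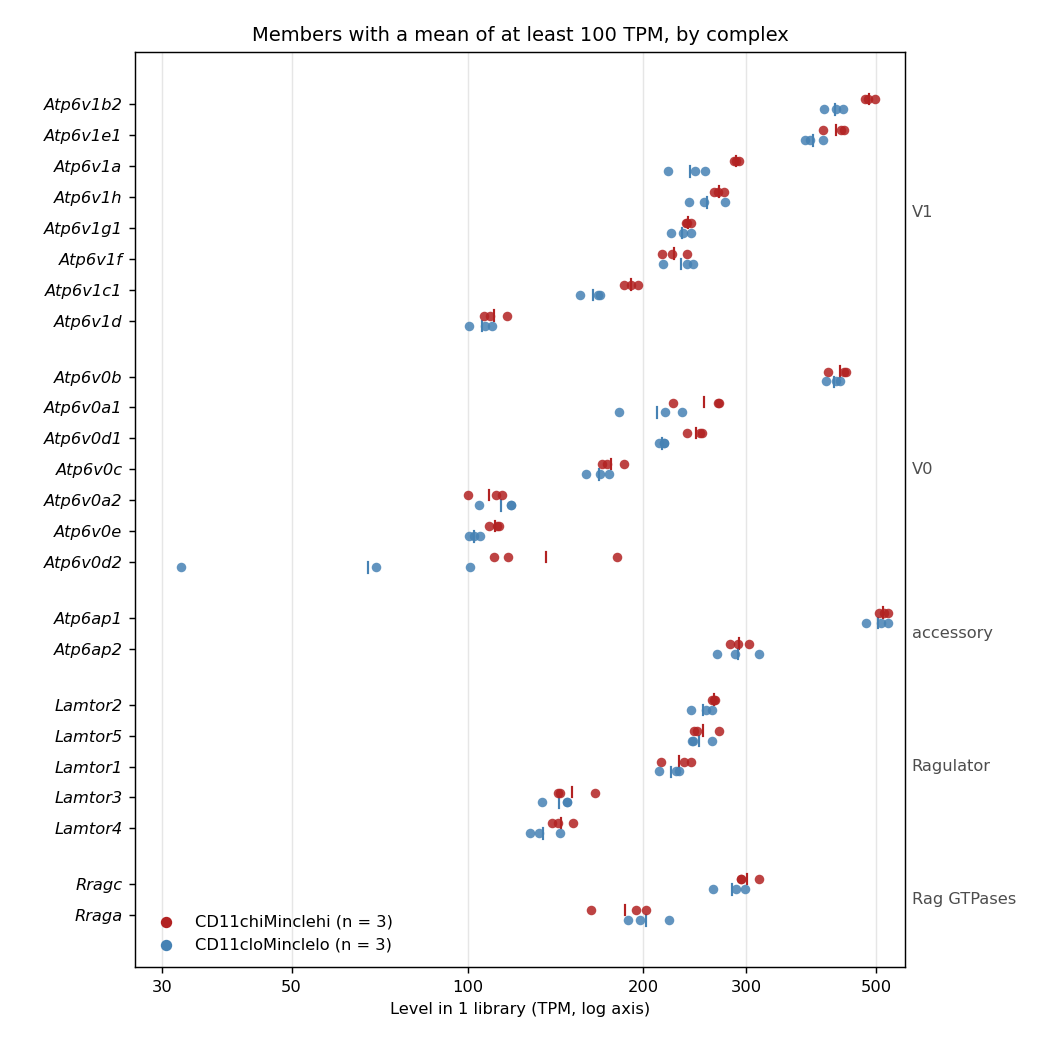
Level in each library (TPM, log axis) of the 24 members with a mean of at least 100 TPM, grouped by complex. Each point is 1 library, red for CD11chiMinclehi and blue for CD11cloMinclelo macrophages (n = 3 each), and each short vertical line is a group mean. Most genes sit between 100 and 500 TPM with both groups close together, and Atp6v0d2 spreads from 32.3 to 180.4 TPM.

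Among V1 subunits, both genes of the ATP-splitting head had the lowest p-values of all members, with higher levels in CD11chiMinclehi macrophages. Atp6v1a encodes the catalytic A subunit. It was at 288, 285 and 292 TPM in CD11chiMinclehi libraries and at 255, 221 and 245 TPM in CD11cloMinclelo libraries. The groups did not overlap, and the log2 fold change was 0.27 ± 0.06 (SE) with a 95% interval of 0.12 to 0.41 and an adjusted p of 0.107. Atp6v1b2 encodes the B subunit of the same head. Its levels were 497, 485 and 478 TPM against 428, 408 and 439 TPM, again without overlap. The log2 fold change of 0.20 ± 0.04 (SE) had the lowest adjusted p of all members, 0.0785, which quantile normalization of the libraries brought to 0.0337. With the replicate number as a block the adjusted p was 0.0532 for Atp6v1a and 0.0537 for Atp6v1b2.

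Atp6v1c1 encodes the C subunit, which joins the stators to the membrane sector and leaves when the pump comes apart. It was at 190.3, 185 and 196 TPM against 169, 156 and 167 TPM, without overlap (log2 fold change 0.22 ± 0.06, adjusted p = 0.169). Atp6v1e1, a stator subunit, was at 435, 441 and 405 TPM against 405, 385 and 379 TPM, so that the lowest CD11chiMinclehi library met the highest CD11cloMinclelo library (log2 fold change 0.13 ± 0.05, adjusted p = 0.306).

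The other abundant V1 subunits showed smaller differences, and the groups overlapped in each. Atp6v1h, the regulatory H subunit, was at 274, 264 and 269 TPM against 275, 239.8 and 254 TPM (log2 fold change 0.07, adjusted p = 0.723). Atp6v1d, of the central rotor, was at 109, 107 and 117 TPM against 107, 100.5 and 110.1 TPM. Atp6v1f, of the same rotor, was at 224, 238 and 215 TPM against 243, 216 and 237 TPM, with a log2 fold change of -0.04 (95% interval -0.19 to 0.11). Atp6v1g1, the widely used G subunit of the stator, was at 238, 237 and 241 TPM against 234, 223 and 241 TPM (log2 fold change 0.04).

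Its paralog Atp6v1g2, known from neurons, was the member furthest below 0. It was at 6.67, 7.09 and 10.4 TPM against 10.1, 14.0 and 12.02 TPM, and CD11chiMinclehi replicate 3 lay within the CD11cloMinclelo range. The log2 fold change was -0.54 ± 0.28 (adjusted p = 0.488), from about 30.9 to 68.4 estimated reads per library. The gene overlaps Nfkbil1 on the opposite strand, and whether counting used strand is not given in the sources used here.

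**Figure D2:**
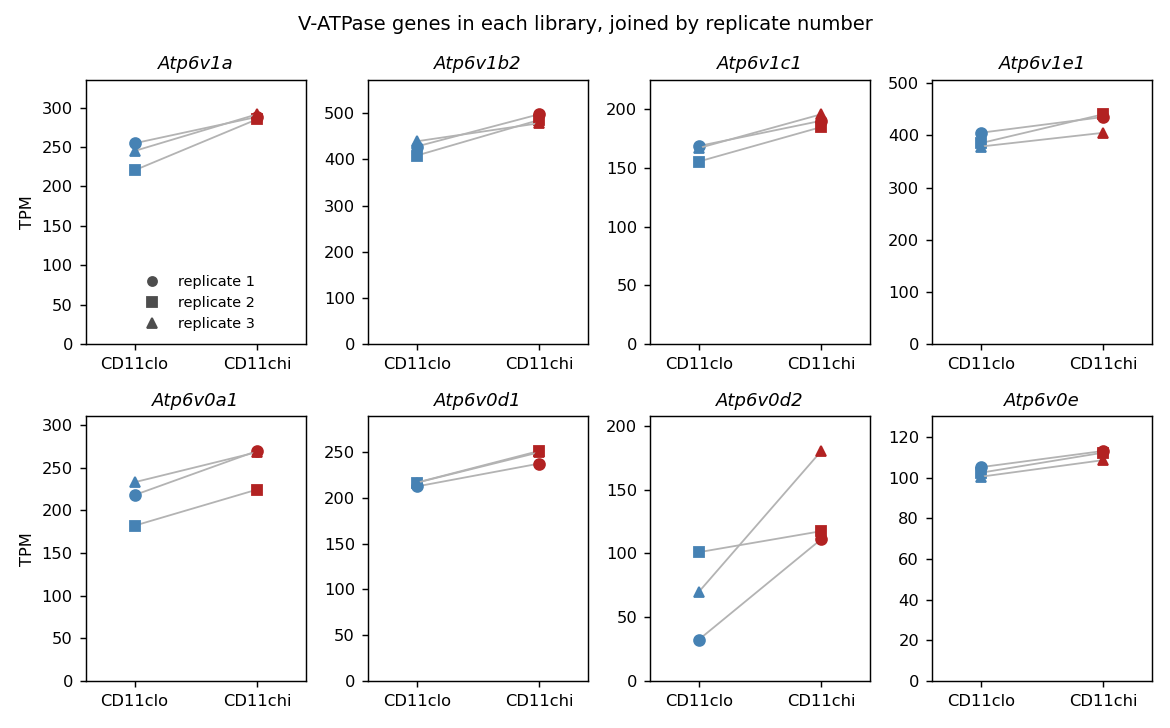
Level (TPM, axes from 0) of 8 V-ATPase genes in each library, with blue CD11cloMinclelo and red CD11chiMinclehi points of equal replicate number joined by a grey line; marker shape gives the replicate number. The 8 genes are the V-ATPase members with an unadjusted p under 0.05 in limma or without overlap. Upward slopes largely follow from this choice. Of all 19 V-ATPase subunits, 9 were higher in all 3 pairs. All lines shown slope up from CD11cloMinclelo to CD11chiMinclehi, by little in most genes. The Atp6v0d2 lines differ most in slope, from 101 to 117 TPM in pair 2 and from 32.3 to 111 TPM in pair 1.

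In the V0 sector, the d subunits, which couple the rotor to the membrane ring, held the largest fold change among abundant members, in Atp6v0d2. Atp6v0d2 (chr4:19876841-19922605, minus strand, GRCm38) is the d isoform of osteoclasts, where it takes part in cell fusion, and the study used it as a qPCR marker gene. It was at 111, 117 and 180.4 TPM in CD11chiMinclehi libraries and at 32.3, 101 and 69.7 TPM in CD11cloMinclelo libraries. The groups did not overlap, but CD11cloMinclelo replicate 2 came close to CD11chiMinclehi replicate 1. The means were 136 ± 38.3 and 67.6 ± 34.4 TPM (SD, n = 3 each), a ratio of 2.02. The log2 fold change was 1.11 ± 0.38 (SE) with a 95% interval of 0.22 to 2.00 and an adjusted p of 0.270, or 0.0824 with the replicate number as a block.

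Differences within pairs 1, 2 and 3 of Atp6v0d2 were 1.75, 0.22 and 1.36 on the log2 scale, and leaving out each library in turn gave 0.66 to 1.47. Its coefficient of variation over libraries was 28.1% in CD11chiMinclehi and 50.8% in CD11cloMinclelo macrophages, against 0.602% to 12.4% for the other 23 abundant members. The standard error of its fold change, 0.38, compares with a median of 0.08 over all 2071 genes between 100 and 200 TPM.

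Of 5 listed osteoclast markers, 2 were called, both higher in CD11chiMinclehi macrophages. The 5 together summed to 789 to 887 TPM in CD11chiMinclehi and 503 to 545 TPM in CD11cloMinclelo libraries. Those called were Ctsk, which encodes cathepsin K (141 ± 20.9 against 28.5 ± 12.4 TPM, adjusted p = 0.0242), and Dcstamp, which encodes a fusion receptor (164 ± 50.9 against 27.7 ± 15.7 TPM, adjusted p = 0.0330). Acp5, Ocstamp and Nfatc1 did not pass, the last with a log2 fold change of 0.04 (adjusted p = 0.946). Within the CD11chiMinclehi group, Dcstamp (156, 219 and 118 TPM) was lowest in replicate 3, where Atp6v0d2 was highest. Within the CD11cloMinclelo group, Dcstamp (27.6, 43.5 and 12.1 TPM) was highest in replicate 2, where Atp6v0d2 was also highest. The part of osteoclast-type expression in the Atp6v0d2 difference was not tested.

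Atp6v0d1, the d isoform of most cells, was at 238, 251 and 249.9 TPM against 213, 217 and 217 TPM. The groups did not overlap, with means of 246 ± 7.59 and 215 ± 2.40 TPM and a log2 fold change of 0.19 ± 0.05 (adjusted p = 0.138). Of the summed d subunit transcripts, Atp6v0d2 made up 31.9%, 31.8% and 41.9% in CD11chiMinclehi libraries and 13.2%, 31.8% and 24.3% in CD11cloMinclelo libraries. The lowest CD11chiMinclehi share and the share in CD11cloMinclelo replicate 2 thus nearly met.

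The a subunits form the proton path and steer the pump to its membrane. Atp6v0a1 was at 269.6, 224 and 268 TPM in CD11chiMinclehi and 218, 182 and 233 TPM in CD11cloMinclelo libraries. Replicate 2 was the lowest in both groups, so the groups overlapped although each pair differed by a similar amount: 0.31, 0.30 and 0.20 on the log2 scale in pairs 1, 2 and 3. The log2 fold change was 0.27 ± 0.11 (adjusted p = 0.344), and the block by replicate number brought the adjusted p to 0.0429. Without pair 1, 2 or 3 the blocked adjusted p was 0.436, 0.370 or 0.243. Atp6v0a2, the isoform of the Golgi and early endosomes, was at 112, 100.1 and 114 TPM against 105, 119 and 119 TPM (log2 fold change -0.07, 95% interval -0.27 to 0.14).

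Tcirg1 encodes the a3 isoform of lysosomes and osteoclasts and lies outside the symbol rule. It was at 371, 392 and 361 TPM against 327, 329.7 and 358 TPM, without overlap (log2 fold change 0.15, adjusted p = 0.295). It was the most abundant a subunit gene, with 50.9% of the summed a subunit transcripts in CD11chiMinclehi and 51.0% in CD11cloMinclelo macrophages. The share of Atp6v0a2 was 14.7% ± 0.711 against 17.2% ± 1.42 (SD, n = 3 each), without overlap.

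The subunits of the proton-carrying ring differed little. Atp6v0c was at 169.6, 185 and 173 TPM against 169, 159 and 175 TPM, and Atp6v0b was at 441, 445 and 414 TPM against 427, 410.0 and 433 TPM (log2 fold changes 0.07 and 0.03). Reads of Atp6v0c could be shared with processed pseudogene copies, and Atp6v0b overlaps an antisense gene, Gm12841. Atp6v0e, a small membrane subunit, was at 113, 112 and 109 TPM against 105, 102 and 100.5 TPM. Its groups did not overlap, yet the log2 fold change was 0.12 ± 0.07 (adjusted p = 0.546). Its paralog Atp6v0e2 was at 1.52, 8.71 and 1.21 TPM against 2.97, 2.29 and 2.65 TPM, from about 5.33 to 35.98 estimated reads, and CD11chiMinclehi replicate 2 stood apart from the others of its group.

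The accessory subunits were level between the groups. Atp6ap1, also known as Ac45, guides assembly and traffic of the pump. It was at 515, 523 and 505 TPM against 524, 480.0 and 509 TPM, with a log2 fold change of 0.03 (95% interval -0.07 to 0.13). Atp6ap2, the prorenin receptor, was at 290.1, 281 and 304 TPM against 316, 267 and 287 TPM, with a log2 fold change of 0.01 (95% interval -0.15 to 0.17).

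Summed over genes, V1 transcripts came to 2263, 2249 and 2222 TPM in CD11chiMinclehi and to 2126, 1962 and 2084 TPM in CD11cloMinclelo libraries, a ratio of means of 1.09. V0 transcripts came to 1456, 1444 and 1510.4 TPM against 1271, 1292 and 1349 TPM, a ratio of 1.13, or 1.08 without Atp6v0d2. This V0 sum holds members only and so leaves out Tcirg1, the most abundant a subunit gene. Neither the V1 sum nor the V0 sum overlapped between the groups. Ragulator transcripts came to 1035, 1052 and 1039.7 TPM against 1043, 972 and 995 TPM, a ratio of 1.04, and Rag GTPase transcripts to 515, 471 and 513 TPM against 525, 457 and 489.9 TPM, a ratio of 1.02. Both of these sums overlapped. These sums were described only, and the difference between the pump and Ragulator-Rag was not tested.

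**Figure D3:**
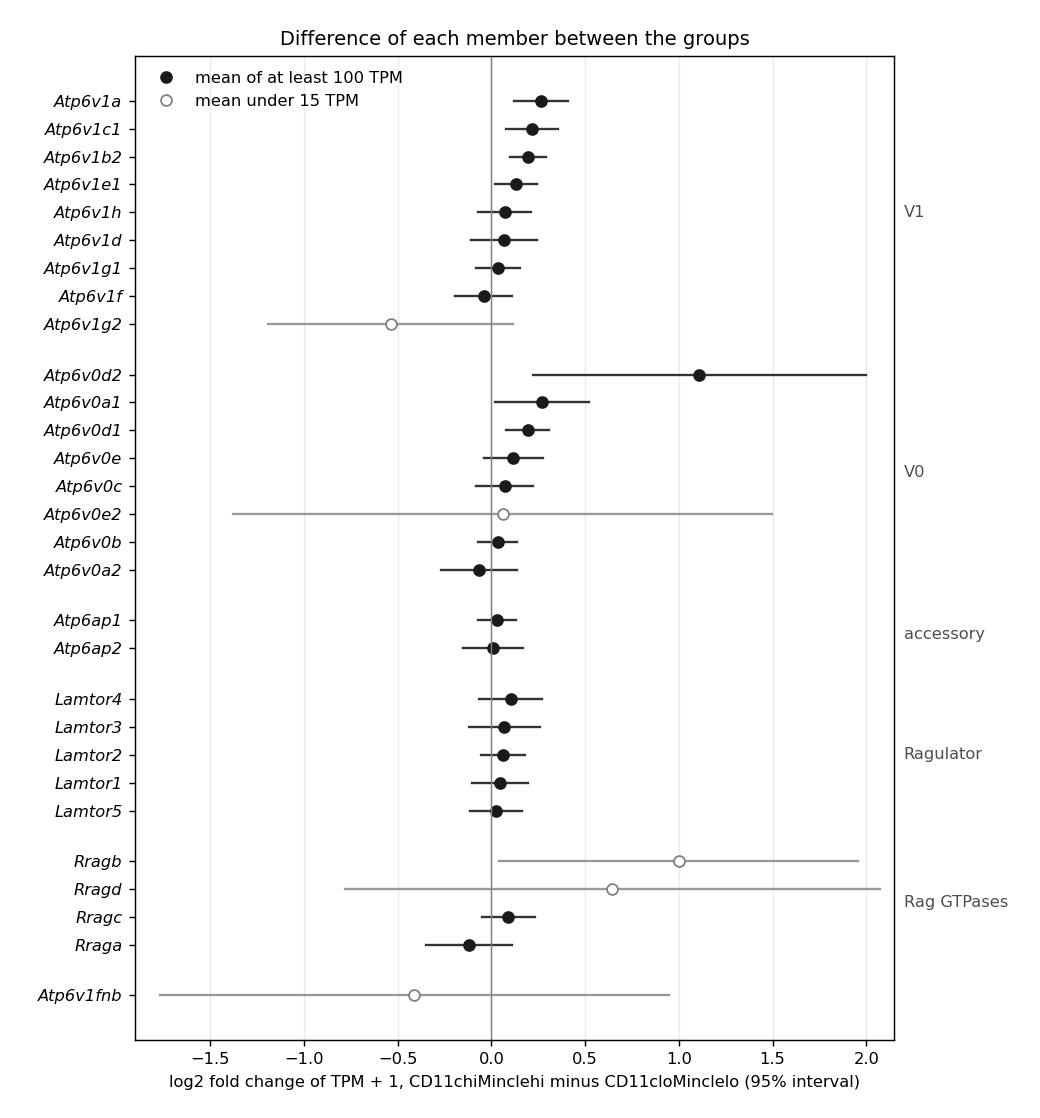
Log2 fold change of TPM + 1, CD11chiMinclehi minus CD11cloMinclelo, for each of the 29 members with its 95% interval from limma, not adjusted for the number of genes. Filled points are members with a mean of at least 100 TPM and open points those under 15 TPM. The intervals of 8 members lie above 0 and none lies below, and intervals of low members are wide.

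All Ragulator subunits had fold changes slightly above 0, the groups overlapped in each of them, and Lamtor3 and Lamtor5 were at or below 0 without CD11chiMinclehi replicate 2. Lamtor1, the lipid-anchored subunit that holds the complex on the lysosome, was at 235, 214 and 242 TPM against 227, 212 and 229.7 TPM. Its gene overlaps Lrrc51 on the opposite strand. The roadblock-fold pair Lamtor2 and Lamtor3 forms the inner scaffold. Lamtor2 was at 262, 264 and 265 TPM against 262, 241 and 256 TPM, and Lamtor3 at 143, 165 and 144 TPM against 148, 148 and 134 TPM. The other roadblock-fold pair is Lamtor4 and Lamtor5. Lamtor4 was at 152, 139 and 143 TPM against 144, 128 and 132 TPM, and Lamtor5 at 244, 269 and 247 TPM against 262, 242 and 243 TPM. The log2 fold changes of the 5 genes lay between 0.02 and 0.10, with adjusted p between 0.645 and 0.929. The 95% interval reached furthest from 0 for Lamtor4, at -0.07 to 0.27.

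Rag GTPases work as pairs of RagA or RagB with RagC or RagD. Rraga (RagA) was at 194, 163 and 202 TPM against 221, 188 and 197 TPM, with overlapping groups and a log2 fold change of -0.12 ± 0.10 (adjusted p = 0.711). Rragc (RagC) was at 315, 294 and 294 TPM against 298, 263 and 287 TPM, also overlapping, with a log2 fold change of 0.09 ± 0.06 (adjusted p = 0.627). These 2 genes gave between 94.8% and 99.5% of the transcripts of their paralog pair in every library.

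The rarer paralogs had higher means and a larger SD in CD11chiMinclehi macrophages. Rragb (RagB), the isoform best known from brain, was at 4.09, 8.94 and 4.78 TPM against 2.87, 1.82 and 2.36 TPM. The groups did not overlap, and the log2 fold change was 1.00 ± 0.41 with a 95% interval of 0.04 to 1.96 (adjusted p = 0.361), resting on about 8.0 to 35.0 estimated reads per library. Rragd (RagD), a known TFEB target, was at 1.47, 5.80 and 12.004 TPM against 2.17, 3.67 and 2.86 TPM. The groups overlapped, since CD11chiMinclehi replicate 1 was the lowest of all 6 libraries (log2 fold change 0.65 ± 0.62, adjusted p = 0.749). Atp6v1fnb, which overlaps Kcp on the opposite strand, was at 0, 1.69 and 0.792 TPM against 0.865, 2.25 and 0.868 TPM, at most about 3.00 estimated reads, and no difference was detectable at this depth.

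**Figure D4:**
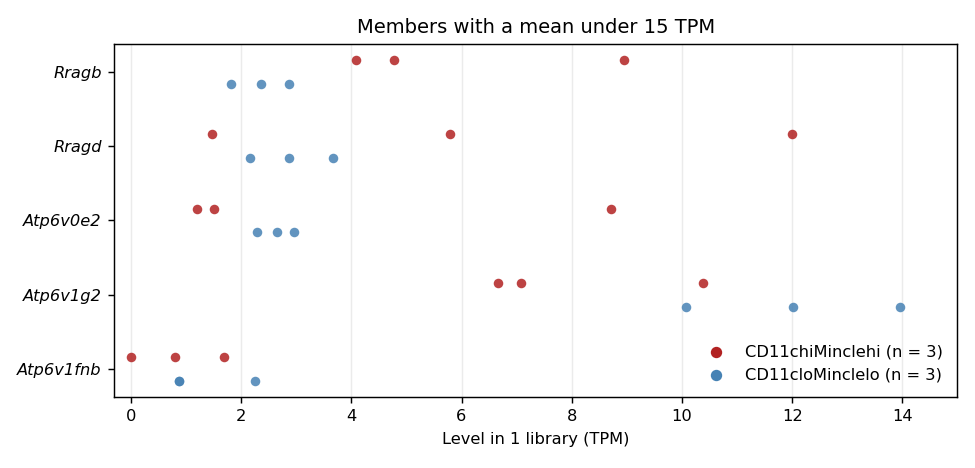
Level in each library (TPM) of the 5 members with a mean under 15 TPM, red for CD11chiMinclehi and blue for CD11cloMinclelo macrophages (n = 3 each). For Rragb all red points (4.09 to 8.94 TPM) lie right of the blue points (1.82 to 2.87 TPM), whereas the groups overlap in the other genes.

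Set beside the promoter windows given above, all 4 members with a promoter entry whose libraries did not overlap (Atp6v1a, Atp6v0d1, Atp6v0e and Rragb) held CACGTG, and 4 of the other 18 members with an entry did. Counting only the 250 bases before the start, it was 2 of these 4 (Atp6v1a and Rragb) and 4 of the other 18. This was noticed after the values were seen, got no test, and leaves out Atp6v1b2, Atp6v1c1 and Atp6v0d2, which had no entry. It also rests on overlap as the criterion. Atp6v0a1 and Atp6v1e1, both higher at an unadjusted p under 0.05 in limma, had a promoter entry without CACGTG. Atp6v0e, which held it, had an unadjusted p of 0.127. The median log2 fold change was 0.11 over the 8 genes with the motif and 0.04 over the 14 without. A motif match is a description and not a bound site.

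Genes that act with the pump and the Rag GTPases were read from lists composed for this purpose, of which 73 of 80 symbols were listed. None of them was called in either direction (0 of 73 higher and 0 lower), and 10 were higher and 4 lower at an unadjusted p under 0.05 (6.44% and 6.45% of all genes). With the replicate number as a block, 3 were called higher and 2 lower (1.67% and 1.75% of all genes). These 5 genes are named for passing there, after their values were seen.

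Mitf, a lysosomal and osteoclast transcription factor of the TFEB family, was at 101, 84.6 and 83.6 TPM against 56.1, 58.3 and 43.1 TPM, without overlap. Its log2 fold change of 0.77 had an adjusted p of 0.0502, or 0.0181 with the block. Tfeb itself was at 106, 107 and 109.99 TPM against 89.3, 90.9 and 95.2 TPM, also without overlap (log2 fold change 0.23, adjusted p = 0.223). Tfe3 (189 ± 15.2 against 187 ± 11.4 TPM) and Tfec (67.7 ± 6.06 against 65.9 ± 9.74 TPM) were level, with log2 fold changes of 0.01 and 0.05.

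Fnip2 encodes a partner of folliculin, with which it acts on RagC and RagD. It was at 73.6, 57.8 and 69.0 TPM against 41.5, 32.2 and 40.2 TPM, a log2 fold change of 0.80 with an adjusted p of 0.0502, or 0.0135 with the block. Sesn1, of the sestrins that restrain the Rag pathway when amino acids are short, was lower without overlap, at 134, 119 and 137 TPM against 169, 168 and 165 TPM. Its log2 fold change was -0.36 with an adjusted p of 0.0611, or 0.0446 with the block.

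Among lysosomal and endosomal channels and exchangers, Tpcn2, an endolysosomal cation channel, was at 209, 171 and 199 TPM against 157, 134 and 159 TPM (log2 fold change 0.36, adjusted p = 0.161, or 0.0236 with the block). Slc9a9, an endosomal sodium-proton exchanger, was at 98.9, 61.5 and 124 TPM against 161, 158 and 187 TPM (log2 fold change -0.88, adjusted p = 0.139, or 0.0262 with the block). By list, the median log2 fold change was -0.03 over 11 genes of V-ATPase assembly and regulation, 0.22 over 10 of mTORC1 and Rheb-TSC, -0.01 over 22 of amino acid sensing, 0.06 over 10 of BORC lysosome positioning and 0.15 over 15 ion channels and exchangers. Rnasek, a further subunit sought, was not listed.

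**Figure D5:**
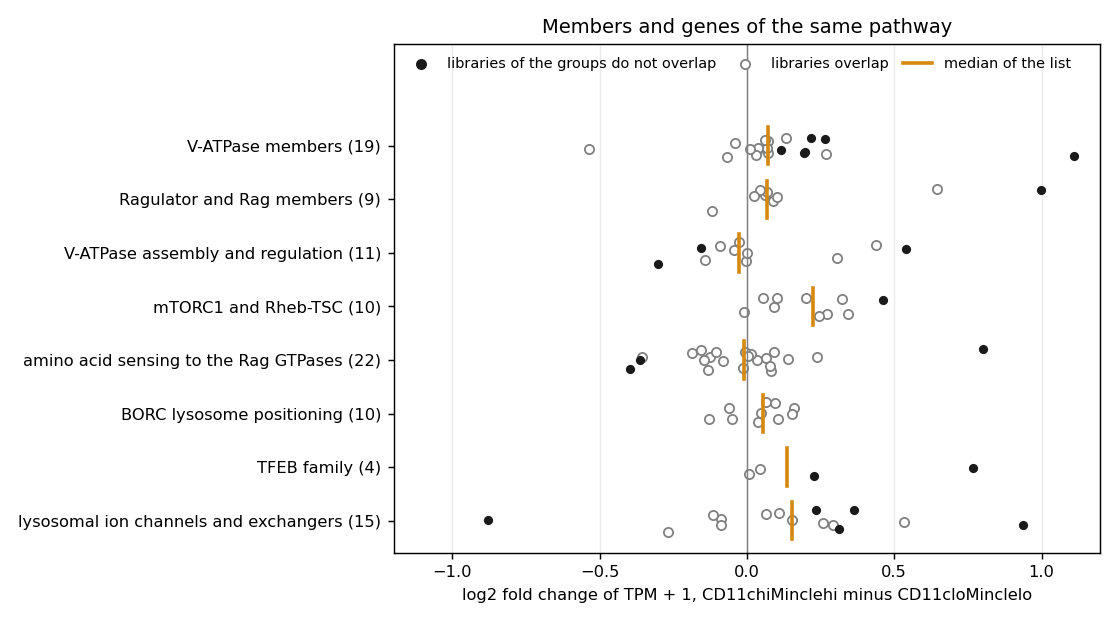
Log2 fold change of TPM + 1, CD11chiMinclehi minus CD11cloMinclelo, of V-ATPase members, Ragulator and Rag members and the genes of 6 related lists, with the number of genes in parentheses. Filled points are genes whose groups of libraries do not overlap, open points those that overlap, and the orange line is the median of a list. Most genes lie close to 0, with Atp6v0d2 (1.11) and Rragb (1.00) furthest right among members and Mcoln2 (0.94), Fnip2 (0.80) and Mitf (0.77) among the related genes.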

How the data were processed

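Bulk RNA-seq of 6 sorted macrophage libraries was used, 3 per group by their titles. Per the labels and methods, the authors selected polyadenylated RNA and made strand-marking libraries. Reads were trimmed (Trimmomatic 0.39.0), aligned to GRCm38 (HISAT2 2.2.1), freed of duplicates (Picard) and counted per gene (featureCounts 2.0.1). The authors turned counts into the deposited TPM with mm10 gene lengths. No molecular identifiers are stated, so duplicate removal can cap abundant genes. The highest level of any gene in any library was 1382 TPM. The 100 most abundant genes held 5.78% to 6.46% of TPM in a library. Over all genes, the SD of log2 fold changes was 0.40 between 20 and 50 TPM and 0.14 between 400 and 2000 TPM. The small differences of abundant members were measured on this scale, and the effect of duplicate removal was not tested. Neither the annotation release nor the strand setting of the counting is given in the sources used here.

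Log2(TPM + 1) was tested on all 16503 genes with limma 3.58.1 in R 4.3.3 (mean-variance trend, two-sided). A gene was called where its p, adjusted over the whole table by Benjamini-Hochberg, was under 0.05. Differences are CD11chiMinclehi minus CD11cloMinclelo on this scale, which understates changes of low genes. The script was tested on simulated data. With 3 libraries against 3, an exact permutation test cannot go below p = 0.1, so none was run.

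The main model has no replicate term, since the study states no pairing for this RNA-seq. For lipid content, qPCR and cytokine release of the same subsets, the study used paired t-tests. Both groups carry the same replicate numbers in their titles, and the numbers in their sample descriptions also match between the groups. Residuals of the libraries numbered 1, 2 and 3 correlated between the groups at 0.36, 0.20 and 0.12. Libraries of unequal replicate number correlated at -0.24 to 0.06. The replicate numbers were therefore also used as a block, and blocked values are given at least where they change a call. Counts, p-values and intervals given without mention of the block ignore any pairing. The sources do not say that equal numbers mean the same mouse. P-values measure the spread between these libraries, which the labels call biological replicates.

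Depth was inferred by multiplying low TPM by exon length (GENCODE M21, GRCm38) and finding the smallest step of each library. Such values came within 0.05 of whole steps in 82.5% to 89.1% of cases, against 10% by chance. Whether a step is 1 read or a pair is unknown. Of all symbols, 97.6% had 1 gene model. Promoters came from RefSeq (GRCm38.p6).

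Every member is named. Of the related genes, those called, Tcirg1, Rnasek and the TFEB family were to be named. The members and lists were chosen with earlier results of these data known. Alternatives were a pseudocount of 0.1, a mean of at least 5 TPM, the block, no mean-variance trend, quantile normalization, leaving out each library, the share of Atp6v0d2 from group means, and promoters without the 50 bases after the start. The block without each pair and the counts without each library were chosen after seeing the data.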

Additional observations from a re-analysis of the deposited data

How the results depend on the processing

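Called members were 0 higher and 0 lower in every setting run except 2: with the replicate block, 1 was called higher (Atp6v0a1, adjusted p 0.0429), and with quantile normalization 1 was called higher (Atp6v1b2, adjusted p 0.0337). No member was called when the block was fitted without any 1 of the 3 pairs, which also leaves fewer libraries. Of related genes, 2 were called higher among genes of at least 5 TPM (Fnip2 and Mitf), 2 higher and 1 lower with quantile normalization, and 3 higher and 2 lower with the replicate block. Over all genes, 127 were called higher and 75 lower. The block gave 275 and 289, quantile normalization 201 and 136, and no mean-variance trend 8 and 11. Leaving out 1 library gave 0 to 21 higher and 0 to 25 lower, from fewer samples. The median log2 fold change of members lay between 0.03 (without CD11cloMinclelo replicate 2) and 0.09 (without CD11cloMinclelo replicate 1) over all settings. The share of Atp6v0d2 among d subunit transcripts from group means was 35.6% and 23.9%, against 35.2% and 23.1% as the mean of libraries. Without the 50 bases after the start, 6 promoters held CACGTG in place of 8, and 1 held TCACGTGA in place of 3. The fold change took another sign in at least 1 setting in 9 members, none of them called in any setting (Atp6ap1, Atp6ap2, Atp6v0a2, Atp6v0b, Atp6v0c, Atp6v0e2, Atp6v1f, Lamtor3 and Lamtor5). Depth limits the 5 members under 15 TPM. The cause of these shifts was not tested except where fewer samples are named.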

Other observations

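The pseudogene rows left out by the symbol rule were low. Atp6v0c-ps2 was at 12.8, 14.9 and 16.3 TPM in CD11chiMinclehi and 10.1, 15.4 and 14.0 TPM in CD11cloMinclelo libraries, and Atp6v0c-ps1 at 1.17, 2.49 and 1.17 TPM against 1.27, 2.21 and 1.28 TPM. The groups overlapped in both.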
